A study of Mus musculus with 17 samples.

Results

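A set of 9 gut genes were followed in medullary thymic epithelial cells, the thymic cells that display proteins of other organs to developing T cells: Pgc and Anxa10 of the stomach, Sis, Vil1, Fabp1, Fabp2 and Aoc1 of absorptive enterocytes, and the secreted lectins Reg4 and Reg3g of the gut lining. They are 9 of the 19752 genes that a probe set with a single symbol names in the platform annotation, and each had 1 such probe set. The genes were listed by name with results of these data in view. Anxa10 alone was selected on a measured value, its low intensity in perinates against adults, so its levels are given as a description with no test. Testing required an intensity above the 40th percentile of the array on 2 or more of the 17 arrays, and 13842 genes met this. Of the 9, 8 passed, and Fabp1 did not, since it was under that percentile on all 17 arrays. Fabp2 passed only through 2 arrays of adult WT GFP+ cells and Reg4 only through the 6 arrays of WT GFP+ cells. Pgc passed only through WT arrays. So these had to be higher there than in KO cells. By the same filter, Reg4 and Fabp2 were favoured to be higher in WT GFP+ than in GFP- cells. Fabp2 was also favoured to be higher in adult than in perinate WT GFP+ cells, and so to fall more with KO in adults. A count over the genes that passed supports nothing by itself.

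RNA of sorted cells was amplified and hybridised to whole-transcript gene arrays, 1 array per sample, and the values are intensities on a linear scale. All groups were C57BL/6 mice, labelled as mixed in sex, and all carried the Adig transgene, in which Aire sequences drive an Igrp-GFP reporter. Cells were sorted as CD45- Ly51- MHCIIhi, and then by GFP. The groups were Aire-KO GFP+ cells of adults (3 arrays), Aire-WT GFP+ cells of adults (3), Aire-WT GFP- cells of adults (3), Aire-KO GFP+ cells of perinates (3), Aire-WT GFP+ cells of perinates (3) and Aire-WT GFP- cells of perinates (2). Adults were 5 weeks old and perinates 3 days old by the sample labels, while the series text gives a range of 0 to 3 days. The labels do not say which part of Aire is deleted, and there is no KO GFP- group. Nothing in them says whether arrays of a group came from separate animals or from pools, so a p-value measures the spread between these arrays, which may be technical.

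As background, Aire is a transcriptional regulator that lets medullary thymic epithelial cells make transcripts of genes that otherwise belong to single organs, and T cells that bind such proteins strongly are deleted or become regulatory. Gut proteins are among these self-antigens. Some medullary cells also take on features of gut cell types, and these depend in part on lineage regulators such as Hnf4 family factors. In the gut itself, pepsinogens are made by chief and mucous cells of the stomach, while brush border hydrolases, villin and fatty acid binding proteins mark the absorptive enterocyte.

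The arrays had medians of 144.5 to 157.1 and 40th percentiles of 96.2 to 112.1. Markers of the labelled cell type were present: all 11 markers of medullary thymic epithelium lay above the 40th percentile on every array of 5 groups, and 10 of 11 did in perinate GFP- cells. Of 7 markers of cortical thymic epithelium 5 to 7 did so too, depending on the group. Their summed intensity was 14662 to 15360 in perinate GFP- cells, where the medullary sum was lowest, and 6403 to 10973 in the other groups. Aire itself could not check the genotype, with 4927 ± 284 in adult KO GFP+ and 5097 ± 971 in adult WT GFP+ cells (SD, n = 3 each), as a probe outside the deleted part says nothing. Arrays 2 and 3 of perinate KO cells stood apart. They read 19.2 and 16.1 for the Y-linked gene Uty, against 168.9 to 366.2 on the arrays of all the other groups and 229.5 on perinate KO array 1, although every label says mixed. Results of the 9 genes that rest on perinate KO cells were therefore also computed with array 1 alone. Those of the marker and gene lists were not. The array 1 alternative was chosen after the data were seen, and in it the lone array is assumed to vary like the other groups.

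Promoter sequence was taken from RefSeq (GRCm38.p6), as 300 bases from 250 before to 50 after the annotated start. All 9 genes matched, with 10 windows because Aoc1 has 2. Windows of 4 genes are shown: Pgc and Reg4, whose levels fell most in KO cells, Reg3g, a relative of Reg4 that answered differently, and Sis, the tested gene that was higher in perinate KO cells. Capitals mark matches, on either strand, to 6 motifs that were searched. TATAAA is the letters of a TATA box. TTTATG stands for sites of CDX factors of the intestine. AGATAA stands for GATA factors. CAAAGTCCA is a site of HNF4 factors, and the shorter CAAAGT lies within it. GTTAAT is part of a site of HNF1 factors. The windows are on chr17:47726592-47726891 (plus strand) for Pgc, chr3:98221906-98222205 (plus strand) for Reg4, chr6:78468825-78469124 (minus strand) for Reg3g and chr3:72967814-72968113 (minus strand) for Sis.
Pgc: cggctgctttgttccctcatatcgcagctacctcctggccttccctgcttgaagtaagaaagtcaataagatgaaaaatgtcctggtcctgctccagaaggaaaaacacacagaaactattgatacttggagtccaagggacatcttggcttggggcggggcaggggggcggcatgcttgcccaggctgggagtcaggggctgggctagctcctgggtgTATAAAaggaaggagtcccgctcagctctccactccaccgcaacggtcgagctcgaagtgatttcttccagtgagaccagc
Reg4: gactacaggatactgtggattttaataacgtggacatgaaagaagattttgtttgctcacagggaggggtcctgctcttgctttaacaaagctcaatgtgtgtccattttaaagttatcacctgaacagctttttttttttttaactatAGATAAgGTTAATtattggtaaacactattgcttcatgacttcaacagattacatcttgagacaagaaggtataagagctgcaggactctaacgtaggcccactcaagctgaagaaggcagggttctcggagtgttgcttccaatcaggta
Reg3g: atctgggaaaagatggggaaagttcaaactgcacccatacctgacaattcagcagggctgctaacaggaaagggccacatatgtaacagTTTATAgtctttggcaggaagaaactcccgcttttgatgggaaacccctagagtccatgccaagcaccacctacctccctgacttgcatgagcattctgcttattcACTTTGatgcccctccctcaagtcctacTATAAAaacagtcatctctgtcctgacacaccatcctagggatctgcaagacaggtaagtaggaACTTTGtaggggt
Sis: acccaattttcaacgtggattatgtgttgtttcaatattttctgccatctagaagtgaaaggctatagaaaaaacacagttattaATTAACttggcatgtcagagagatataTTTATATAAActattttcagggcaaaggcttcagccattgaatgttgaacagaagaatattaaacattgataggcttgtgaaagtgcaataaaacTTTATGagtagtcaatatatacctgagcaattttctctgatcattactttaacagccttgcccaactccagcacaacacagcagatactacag

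On the forward strand a TATAAA begins at position -31 from the start of Pgc and -27 from that of Reg3g, and also at -32 for Anxa10 and -30 for Fabp1. Among the 32851 promoter windows searched, which leave out a chromosome, 1.99% have one on the forward strand 20 to 40 bases before the start. Reg4 has no TATAAA in its window, but an AGATAA at -101 and a GTTAAT at -94. Sis has a TTTATG at -43, and its pair of TATAAA matches overlap each other on opposite strands. Anywhere in the window, on either strand, TATAAA occurs in 13.6% of the windows searched, TTTATG in 11.85% and AGATAA in 11.2%. CAAAGT occurs in 14.4%, GTTAAT in 7.10% and CAAAGTCCA in 0.475%. The Vil1 window holds none of the 6, and no window of the 9 genes holds CAAAGTCCA. The 10 windows of the 9 genes have 1 to 9 CpG dinucleotides, against a median of 7 over the windows searched. These matches are letters in a window and do not show binding.

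**Figure D1:**
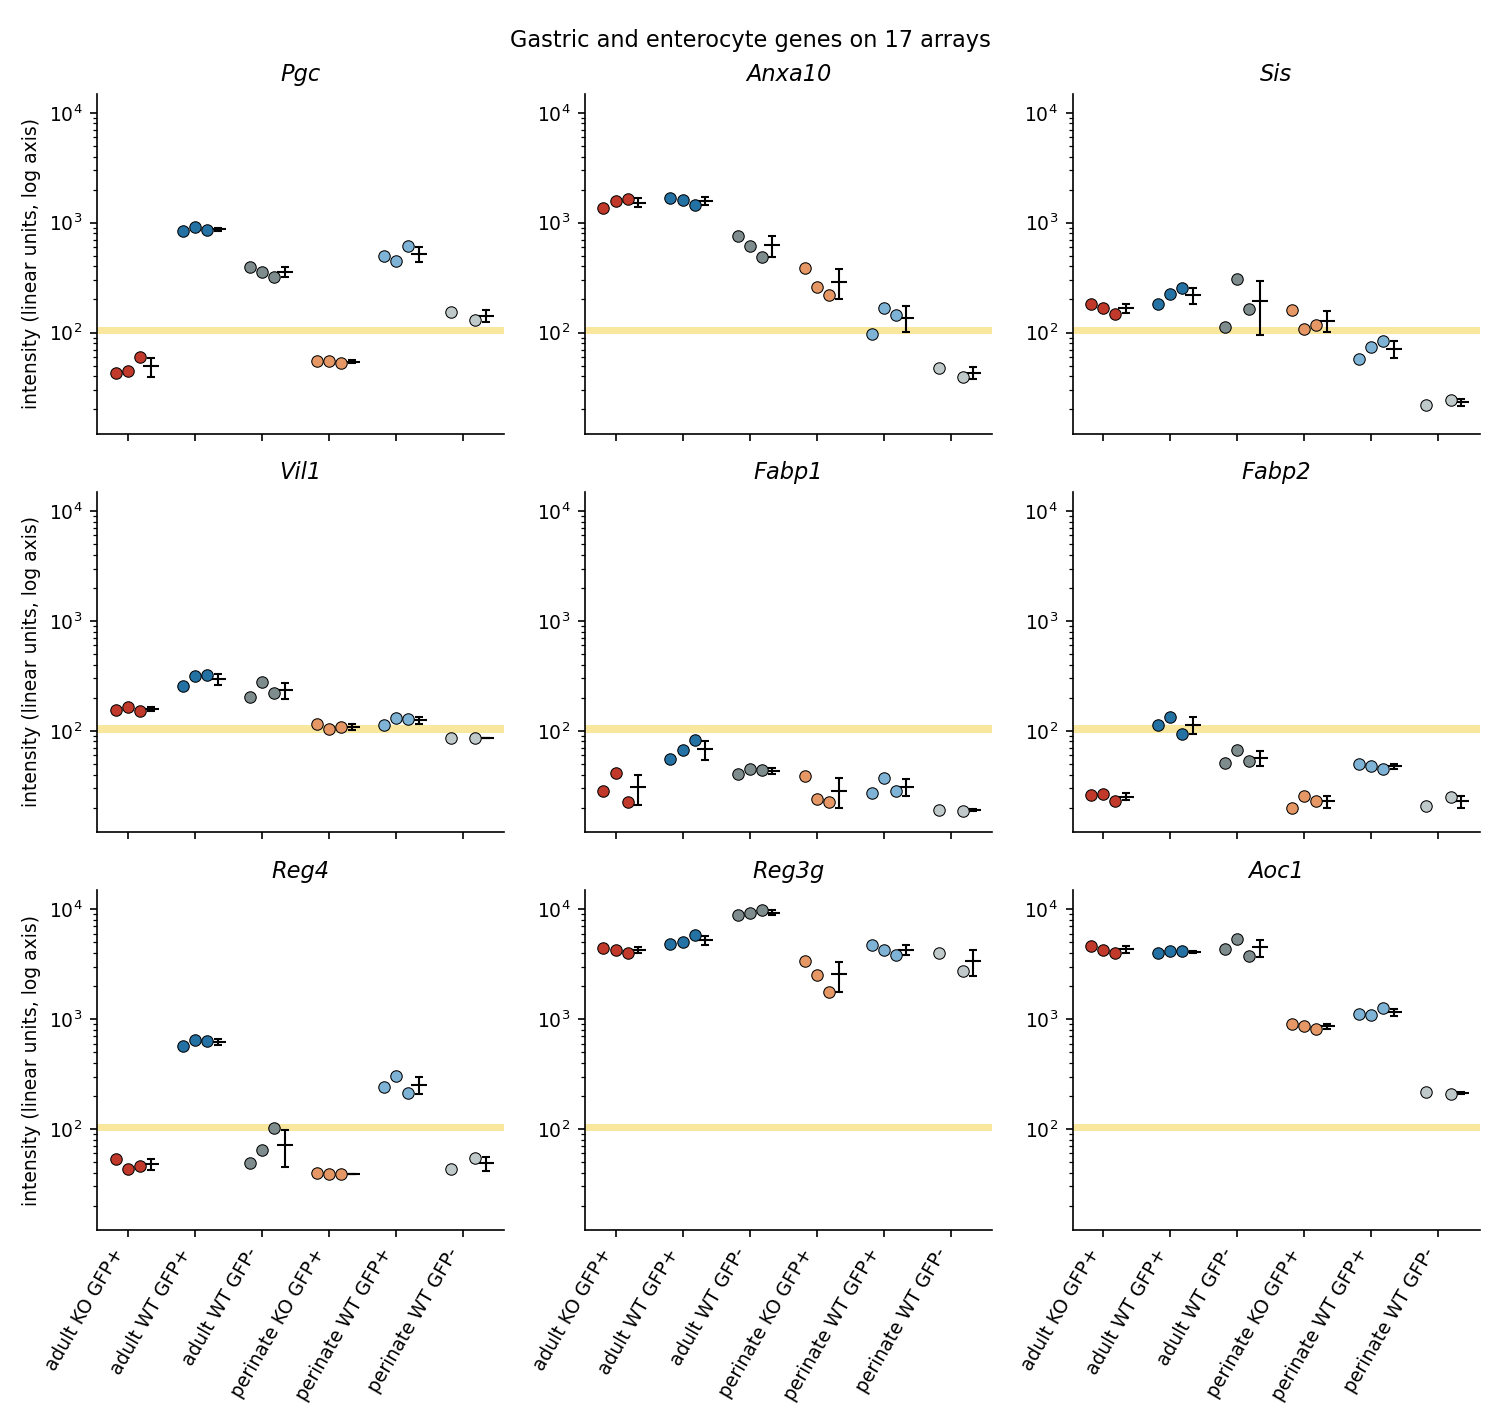
Intensity (log scale) of the 9 genes on each of the 17 arrays, by group, with the group mean ± SD as a black bar and a band for the range of the arrays' 40th percentiles, 96.2 to 112.1. Pgc and Reg4 are low in KO cells of both ages, Anxa10 and Aoc1 are low in perinates, and Fabp1 lies under the band on all 17 arrays.

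In adult GFP+ cells without Aire, Pgc, Reg4 and Fabp2 lost most of their signal and Vil1 was lower, while Sis, Reg3g and Aoc1 did not pass the test. Of the 7 genes with a p, 4 were lower in KO, where 10.8% of all tested genes were lower at the same threshold. Of the 4, Pgc, Reg4 and Fabp2 passed the filter only through WT arrays, so this count supports nothing by itself. The threshold was an adjusted p under 0.05 from limma with Benjamini-Hochberg adjustment over all tested genes. With arrays centred on their median that genome-wide split changed to 2127 higher and 1350 lower, against 1254 higher and 1497 lower. In these bulk samples, fewer cells that make a transcript and less RNA per cell cannot be told apart.

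Pgc encodes pepsinogen C, the precursor of a gastric protease. Its arrays read 42.4, 45.0 and 59.97 in adult KO cells, against 843, 909 and 853 in adult WT GFP+ cells. In perinates they read 55.6, 54.6 and 52.6 in KO and 500.3, 446.9 and 608.6 in WT GFP+ cells. The groups did not overlap at either age, and all 6 KO arrays were under the 40th percentile, where a value may be background. Pgc was 17.9-fold lower in adult KO cells (log2 difference -4.16 ± 0.14 SE, adjusted p = 1.41e-12 by limma) and 9.48-fold lower in perinate KO cells (-3.25 ± 0.14 SE, adjusted p = 3.60e-11 by limma). With perinate KO array 1 alone the perinate difference was -3.21.

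Anxa10 encodes an annexin, a calcium-dependent membrane-binding protein, which in the body is found mainly in the stomach lining. Adult KO arrays read 1361, 1578 and 1632, against 1691, 1597 and 1445 in adult WT GFP+ cells, and the groups overlapped (difference -0.05 ± 0.21 SE). Perinate KO arrays read 387.3, 261.002 and 221.7, against 96.5, 167.5 and 145.2 in perinate WT GFP+ cells, and the groups did not overlap (difference 1.09 ± 0.21 SE, or 1.54 with array 1 alone). Array 5 of the perinate WT GFP+ cells was under the 40th percentile, and low perinate values are what Anxa10 was picked for.

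Sis encodes sucrase-isomaltase, the brush border enzyme that splits sucrose and starch fragments. Its arrays read 181, 168 and 148.5 in adult KO cells, against 180.2, 226 and 254 in adult WT GFP+ cells, which overlap (log2 difference -0.40 ± 0.26 SE, adjusted p = 0.318 by limma). In perinates they read 159.7, 107.4 and 117.4 in KO, against 57.6, 73.5 and 83.5 in WT GFP+ cells. All 3 KO arrays were higher, by 1.79-fold, though the 3 WT GFP+ arrays were under the 40th percentile and limit that fold (0.84 ± 0.26 SE, adjusted p = 0.0264 by limma). That call was lost without perinate KO array 1 (adjusted p = 0.1000), perinate KO array 3 (0.0518) or perinate WT GFP+ array 5 (0.114), and with KO array 1 alone (1.18, adjusted p = 0.0693).

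Vil1 encodes villin, which bundles the actin core of microvilli. It read 155.4, 164.0 and 152.5 in adult KO cells, against 257, 312 and 322 in adult WT GFP+ cells. The KO arrays lay close together and under all WT arrays, 1.88-fold lower (-0.91 ± 0.12 SE, adjusted p = 2.33e-05 by limma). In perinates Vil1 read 116.4, 103.0 and 108.8 in KO and 113.2, 131 and 129 in WT GFP+ cells, near the 40th percentile, with overlap and no call (-0.18 ± 0.12 SE, adjusted p = 0.262 by limma, or -0.09 with KO array 1 alone).

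Fabp2, the intestinal fatty acid binding protein, carries long-chain fatty acids inside the enterocyte. It read 26.3, 26.4 and 22.9 in adult KO cells, against 112, 133 and 94.5 in adult WT GFP+ cells, a 4.46-fold lower level (-2.16 ± 0.14 SE, adjusted p = 4.34e-09 by limma). In perinates it read 19.8, 25.3 and 23.1 in KO, against 49.8, 47.9 and 45.0 in WT GFP+ cells, and all of these were under the 40th percentile (-1.07 ± 0.14 SE, adjusted p = 2.81e-05 by limma). Neither age showed overlap. Fabp1, the liver-type relative that enterocytes make too, read 28.2, 40.9 and 22.5 in adult KO and 55.0, 67.0 and 81.9 in adult WT GFP+ cells (difference -1.18 ± 0.21 SE, with no test because the gene did not pass the filter). In perinates its values were 38.8, 24.2 and 22.7 in KO and 27.3, 37.1 and 28.4 in WT GFP+ cells, which overlapped (-0.15 ± 0.21 SE, turning to 0.34 ± 0.27 with KO array 1 alone).

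Reg4 and Reg3g are secreted C-type lectins of the regenerating family. Reg3g kills Gram-positive bacteria at the gut surface, and Reg4 is made by enteroendocrine and other secretory cells. Reg4 read 53.9, 43.3 and 45.9 in adult KO cells, against 571, 641 and 636 in adult WT GFP+ cells, and 39.4, 38.8 and 38.7 in perinate KO cells, against 242, 301 and 214.5 in perinate WT GFP+ cells. It was 12.9-fold lower in adult KO cells (-3.69 ± 0.19 SE, adjusted p = 3.30e-10 by limma) and 6.41-fold lower in perinate KO cells (-2.68 ± 0.19 SE, adjusted p = 2.20e-08 by limma). Reg3g read 4487, 4301 and 3976 in adult KO cells, against 4826, 5088 and 5818 in adult WT GFP+ cells, which did not overlap but differed by too little to pass (-0.30 ± 0.18 SE, adjusted p = 0.276 by limma). Perinate KO arrays read 3355, 2539 and 1776, against 4756, 4225 and 3877 in WT GFP+ cells, 1.73-fold lower (-0.79 ± 0.18 SE, adjusted p = 0.00453 by limma). With perinate KO array 1 alone the Reg3g difference was -0.35 and not called (adjusted p = 0.311).

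Aoc1 encodes diamine oxidase, which breaks down histamine and putrescine in the gut lining. It read 4675, 4279 and 4004 in adult KO cells, against 4028, 4184 and 4167 in adult WT GFP+ cells, with overlap (0.06 ± 0.11 SE, adjusted p = 0.748 by limma). Perinate KO arrays read 906.4, 869.4 and 807.7, against 1118, 1097 and 1256 in perinate WT GFP+ cells, 1.34-fold lower (-0.42 ± 0.11 SE, adjusted p = 0.0118 by limma). The Aoc1 call was lost without perinate KO array 3 (adjusted p = 0.0554) and with KO array 1 alone (adjusted p = 0.248).

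In perinates as a whole, 5 of the 7 genes with a p were lower in KO and 1, Sis, was higher. Over all tested genes 13% were lower and 13.5% higher. Of the 5, Pgc, Reg4 and Fabp2 passed the filter only through WT arrays, so that count supports nothing by itself. Centred on the array median, the genome-wide perinate split was 3190 higher and 1594 lower, against 1862 and 1802. With perinate KO array 1 alone, 3 were called, Pgc, Reg4 and Fabp2. Markers of other cell types moved with KO in adults too. The summed intensity of 7 fibroblast markers was 4349 to 4682 in adult KO and 2738 to 3099 in adult WT GFP+ cells (5 of 7 above the 40th percentile on every array in each). Yet 2 were called higher and 2 lower in adults (median log2 difference 0.17). The sum of 4 goblet-like markers was 362.8 to 633.2 in adult KO and 977.5 to 1325 in adult WT GFP+ cells (2 and 4 of 4 above). Enpep, the gene of the excluded surface marker Ly51, read 85.2 ± 5.3 in adult KO and 266.6 ± 40.3 in adult WT GFP+ cells (SD, n = 3 each). In perinates the fibroblast sums overlapped, at 5074 to 5401 in KO and 4263 to 5264 in WT GFP+ cells. The perinate goblet-like sums did not, at 337.3 to 455.2 and 875.0 to 1289. Perinate Enpep read 105.9 ± 12.8 in KO and 187.2 ± 20.8 in WT GFP+ cells (SD, n = 3 each). The part of these markers in the KO differences was not tested.

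**Figure D2:**
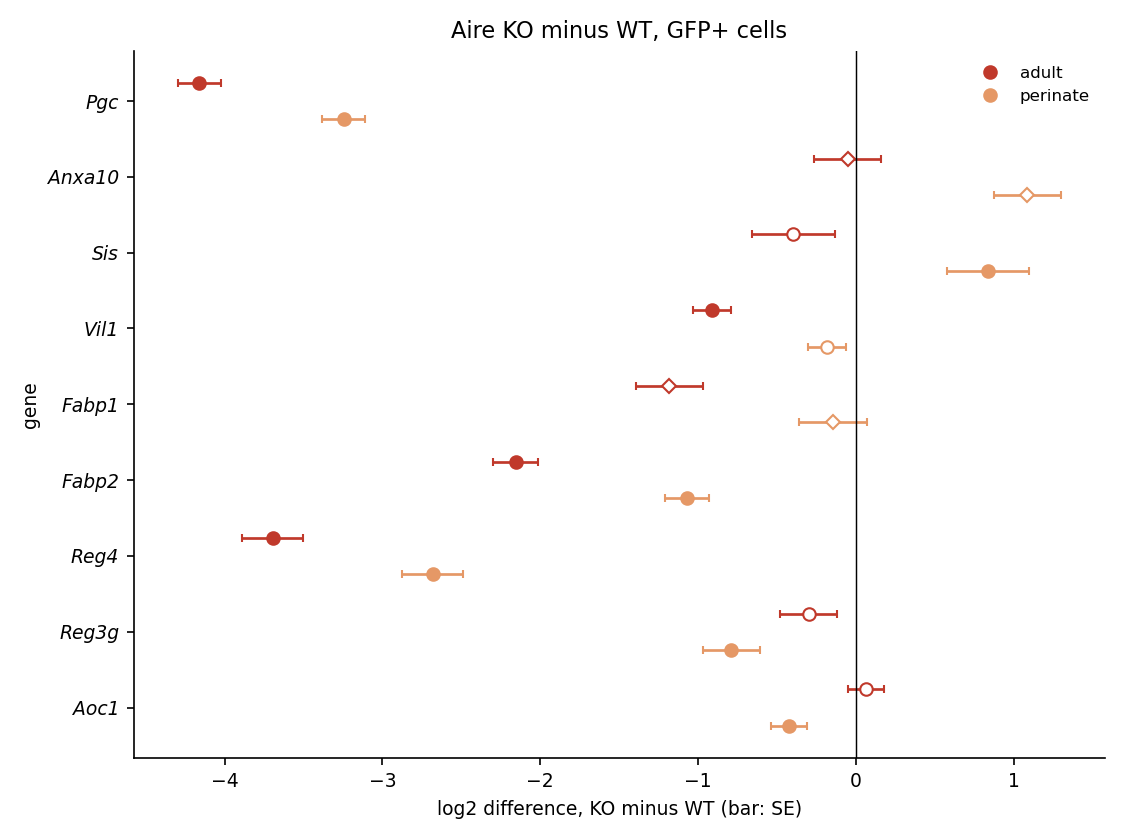
Log2 difference of KO minus WT GFP+ cells, with its standard error, for each of the 9 genes in adults and in perinates. Filled points were called, open circles were tested and not called, and diamonds carry no p (Anxa10 and Fabp1). Pgc and Reg4 lie farthest below 0 at both ages, and Sis and Anxa10 lie above 0 in perinates.

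The KO effects of the 2 ages were set against each other as the adult effect minus the perinate effect, a test in which 0.722% of all tested genes were called with a lower adult effect. Of the 7 genes, 3 were so called. Fabp2 passed the filter only through adult WT GFP+ arrays, which favoured this direction. Pgc passed only through WT arrays, so this count supports nothing by itself. The difference was -1.08 ± 0.20 (SE) for Fabp2 (adjusted p = 0.0144 by limma), -0.91 ± 0.19 for Pgc (0.0314) and -0.73 ± 0.17 for Vil1 (0.0473). Reg4 had a difference of like size, -1.01 ± 0.27, that did not pass (adjusted p = 0.0732 by limma), and Sis had -1.23 ± 0.37 (0.102). In a fit of only the groups compared both were called (adjusted p = 0.0137 and 0.0278 by limma). Reg4 was also called with array weights (0.0176) and a pseudocount of 16 (0.0403). Leaving out adult GFP- array 6 or 8 for Reg4, or 7 for Sis, gave a call too, though these arrays lie outside this contrast. With perinate KO array 1 alone 0 of the 7 were called, Fabp2 at an adjusted p of 0.152, Pgc at 0.146 and Vil1 at 0.145. When any single array was left out the Fabp2 call held, with adjusted p-values of 0.00974 to 0.0469. Pgc was lost on leaving out any of 9 arrays (adult KO 1 or 2, adult WT GFP+ 6, 7 or 8, perinate KO 2 or 3, perinate WT GFP+ 5 or 6), with adjusted p-values up to 0.0842, and Vil1 on leaving out any of 11, up to 0.114. Vil1 was lost without adult KO 1, 2 or 3, adult WT GFP+ 7 or 8, adult GFP- 8, perinate KO 1, 2 or 3, or perinate WT GFP+ 5 or 7. Levels in KO cells of both ages lay under the 40th percentile for Pgc and Fabp2, and there a larger adult fall and a higher adult WT level cannot be told apart.

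Cells were split by GFP signal of the Aire-driven reporter. Aire transcript was lower in WT GFP- cells but not absent, at 690.0 ± 221.1 in adults and 310.5 ± 57.3 in perinates. WT GFP+ cells read 5097 ± 971 and 4773 ± 629. G6pc2, the Igrp gene, read 1614 ± 143 and 341.5 ± 123.9 in GFP- cells, against 9141 ± 484 and 7559 ± 403 (SD, n = 3, or 2 for perinate GFP-). The part of this remaining transcript in the GFP differences was not tested. In adult WT cells, 4 of the 7 genes were higher in GFP+ cells and 1, Reg3g, was lower, where 24.7% of all tested genes were higher and 20.1% lower. In perinate WT cells 6 of 7 were higher, where 23% of tested genes were. Reg4 passed the filter only through WT GFP+ arrays and Fabp2 only through adult ones, so these counts support nothing by themselves. At both ages Pgc and Reg4 were higher in GFP+ than in GFP- cells.

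Reg4 read 49.6, 64.4 and 101.3 in adult GFP- cells, all far under the lowest GFP+ array. All 5 GFP- arrays of both ages were under the 40th percentile for Reg4, which limits its folds. Reg4 was 8.96-fold higher in adult GFP+ than GFP- cells (3.16 ± 0.19 SE, adjusted p = 5.55e-09 by limma) and 5.17-fold higher in perinates, where GFP- arrays read 43.3 and 54.0 (2.37 ± 0.22 SE, adjusted p = 1.79e-07 by limma). Pgc was 2.43-fold higher in adult GFP+ cells, over GFP- arrays of 392.6, 358.5 and 322.7 (1.28 ± 0.14 SE, adjusted p = 1.45e-06 by limma). In perinates Pgc was 3.63-fold higher in GFP+ cells, over GFP- arrays of 155.2 and 129.4 (1.86 ± 0.15 SE, adjusted p = 5.50e-08 by limma). Fabp2 was 1.99-fold higher in adult GFP+ cells, over GFP- arrays of 50.4, 67.2 and 52.8 (adjusted p = 2.71e-05 by limma). In perinates Fabp2 was 2.09-fold higher in GFP+ cells, over GFP- arrays of 20.7 and 24.9 (adjusted p = 3.53e-05 by limma). All perinate WT arrays of Fabp2 and its adult GFP- arrays were under the 40th percentile, so in perinates both levels may be background. Fabp1, not tested, had GFP- arrays of 40.1, 44.8 and 43.8 in adults (0.65 ± 0.21 SE) and 19.2 and 18.6 in perinates (0.70 ± 0.24 SE), under every GFP+ array of the same age.

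Vil1 was higher in GFP+ cells by 0.36 ± 0.12 (SE) in adults (adjusted p = 0.0222 by limma), but the groups overlapped, with GFP- arrays of 202, 276 and 221. That adult call was lost without any of 4 arrays (WT GFP+ 7 or 8, GFP- 6 or 8), with adjusted p-values of 0.0676 to 0.111. In perinates Vil1 was higher by 0.53 ± 0.13, over GFP- arrays of 85.4 and 86.1 (adjusted p = 0.00362 by limma). Sis was not called in adults, with GFP- arrays of 113, 306.6 and 165 that span the GFP+ ones (0.28 ± 0.26 SE, adjusted p = 0.396 by limma). Without GFP- array 7, the highest, the Sis difference was 0.67 and called (adjusted p = 0.0164). In perinates Sis was 3.06-fold higher in GFP+ cells, over GFP- arrays of 22.0 and 24.2 (1.61 ± 0.29 SE, adjusted p = 0.000261 by limma). All 5 of these perinate WT arrays were under the 40th percentile for Sis, so both levels may be background.

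Reg3g and Aoc1 broke the pattern. Reg3g read 8796, 9307 and 9838 in adult GFP- cells, above every GFP+ array, so GFP+ cells were 1.78-fold lower (-0.83 ± 0.18 SE, adjusted p = 0.00139 by limma). In perinates Reg3g GFP- arrays read 3992 and 2724, overlapping the GFP+ ones (0.37 ± 0.20 SE, adjusted p = 0.153 by limma), and without GFP- array 1 the difference was 0.65 and called (adjusted p = 0.0434). Aoc1 read 4386, 5328 and 3771 in adult GFP- cells, overlapping the GFP+ arrays (-0.11 ± 0.11 SE, adjusted p = 0.460 by limma). Its perinate GFP- arrays read only 215.5 and 208.6, and GFP+ cells were 5.45-fold higher (2.45 ± 0.13 SE, adjusted p = 5.07e-10 by limma). Anxa10 was higher in GFP+ cells at both ages, over GFP- arrays of 762, 616.5 and 490.3 in adults (1.36 ± 0.21 SE) and 47.1 and 39.4 in perinates (1.63 ± 0.24 SE).

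The GFP effect itself changed with age for 3 of the 7, all with a lower adult effect, where 10.7% of all tested genes were so called. The adult minus perinate difference was -2.55 ± 0.17 (SE) for Aoc1 (adjusted p = 1.23e-07 by limma), -1.21 ± 0.27 for Reg3g (0.00486) and -1.33 ± 0.39 for Sis (0.0238), whose perinate WT values were all under the 40th percentile. The Sis call was lost without adult WT GFP+ array 6 (0.0579), perinate WT GFP+ array 7 (0.0559), perinate GFP- array 1 (0.0758) or perinate GFP- array 2 (0.0505). Pgc had -0.58 ± 0.21 (adjusted p = 0.0573 by limma) and Reg4 0.80 ± 0.29 (0.0631), each of which was called on leaving out some single arrays (Pgc without adult KO 3, adult GFP- 8, perinate WT GFP+ 6 or perinate GFP- 1, Reg4 without adult GFP- 8 or perinate WT GFP+ 6). Cell type markers moved with GFP in adults: the summed intensity of 8 tuft-like markers was 1004 to 1228 in GFP+ cells and 6655 to 10030 in GFP- cells (3 and 7 of 8 above the 40th percentile on every array). In perinates the summed intensity of 7 cortical epithelium markers was 6403 to 10132 in GFP+ cells and 14662 to 15360 in GFP- cells, with 2 called higher and 4 lower in GFP+ cells, although the sort excluded Ly51. That of the tuft-like markers was 968.1 to 1135 in GFP+ and 2095 to 3620 in GFP- cells of perinates. Their part in the Reg3g, Aoc1 and other GFP values was not tested.

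**Figure D3:**
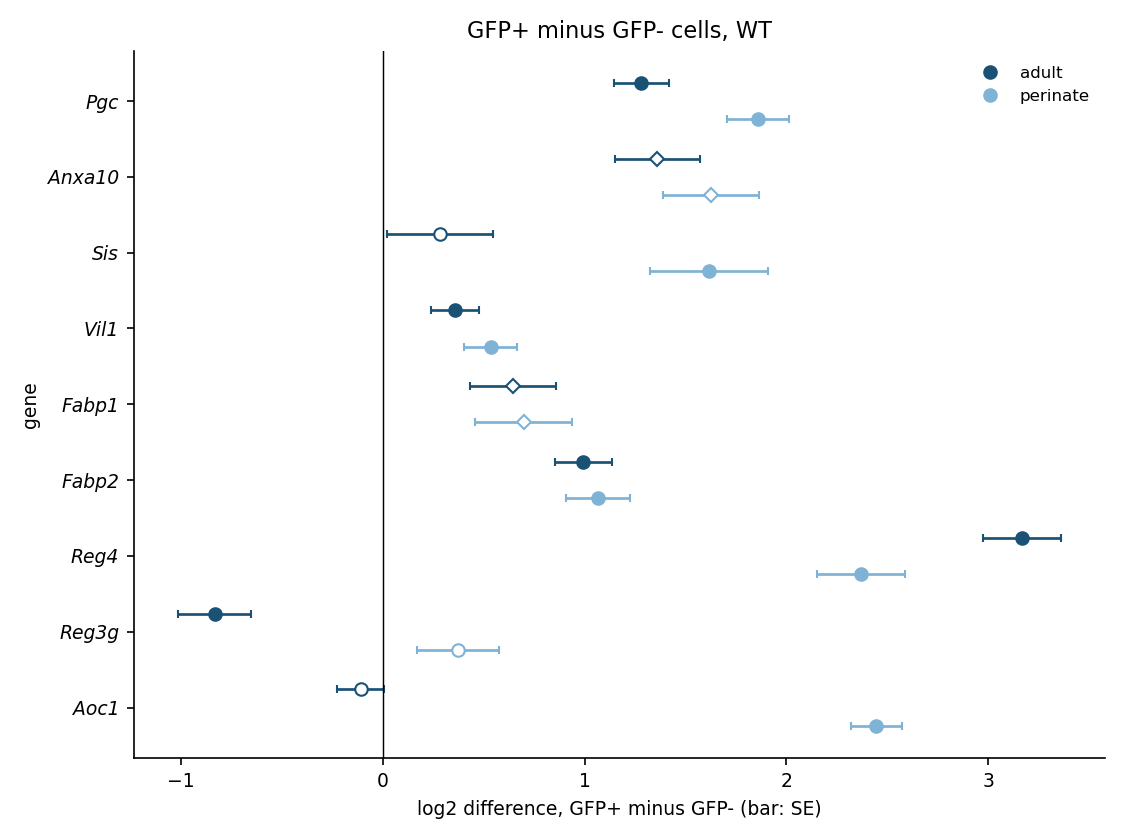
Log2 difference of GFP+ minus GFP- WT cells, with its standard error, for the 9 genes in adults and in perinates. Filled points were called, open circles were tested and not called, and diamonds carry no p. Reg4 lies highest in adults and Aoc1 in perinates, and Reg3g in adults lies below 0.

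In WT cells most of the genes with a p had higher levels in adults than in perinates. Of the 7 genes with a p, 6 were higher in adult WT GFP+ cells, where 13.6% of all tested genes were, and 6 in adult WT GFP- cells, where 24.2% were. In KO GFP+ cells 3 of 7 were higher, where 12.7% were. Quantile normalisation changed the genome-wide split in WT GFP+ cells to 1791 higher and 1747 lower, against 1888 and 1179. Cell type markers moved with age as well, most in WT GFP- cells, where 7 of 11 medullary markers (median log2 difference 1.07), 6 of 8 tuft-like (1.497) and 6 of 7 microfold-like markers (1.605) were higher in adults and 4 of 7 cortical markers were lower. In WT GFP+ cells 1 of 11 medullary, 0 of 8 tuft-like and 3 of 7 microfold-like markers were higher. Their part in the age differences was not tested.

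Aoc1 changed most among the tested genes. In WT GFP- cells it was 21.0-fold higher in adults (4.39 ± 0.13 SE, adjusted p = 5.87e-13 by limma), in KO GFP+ cells 5.01-fold (2.33 ± 0.11 SE, adjusted p = 2.79e-09 by limma) and in WT GFP+ cells 3.57-fold (1.84 ± 0.11 SE, adjusted p = 1.14e-07 by limma). Its adult and perinate arrays did not overlap in any of the 3 cell groups. Anxa10, which was picked for this age pattern, was 11.8-fold higher in adult WT GFP+ cells, 14.2-fold in WT GFP- cells and 5.39-fold in KO GFP+ cells. In KO cells the log2 difference with perinate KO array 1 alone was 1.97 for Anxa10, against 2.43, and 2.25 for Aoc1, which stayed called.

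The enterocyte genes Sis, Vil1 and Fabp2 also rose with age in WT cells. Sis was 3.08-fold higher in adult WT GFP+ cells (adjusted p = 0.000416 by limma) and 7.74-fold in adult WT GFP- cells (adjusted p = 4.97e-07 by limma). Vil1 was 2.38-fold and Fabp2 2.36-fold higher in adult WT GFP+ cells, and in GFP- cells 2.69-fold and 2.48-fold, all called. All perinate WT arrays of Sis and Fabp2 and the perinate GFP- arrays of Vil1 were under the 40th percentile, which limits these folds. The adult GFP- arrays of Fabp2 were under it too, so both of its GFP- levels may be background. Fabp2 passed the filter only through adult WT GFP+ arrays, which favoured its difference there. In KO GFP+ cells Sis (0.39 ± 0.26 SE, adjusted p = 0.298 by limma) and Fabp2 (0.15 ± 0.14 SE, adjusted p = 0.461 by limma) did not pass, while Vil1 was 1.44-fold higher (adjusted p = 0.00416 by limma), a call lost with perinate KO array 1 alone (adjusted p = 0.123). Fabp1, at background levels, had adult minus perinate differences of 0.10 ± 0.21 (SE) in KO GFP+ (-0.39 with perinate KO array 1 alone), 1.13 ± 0.21 in WT GFP+ and 1.18 ± 0.24 in WT GFP- cells.

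Pgc was 1.69-fold higher in adult WT GFP+ cells (0.75 ± 0.14 SE, adjusted p = 0.00105 by limma) and 2.52-fold in WT GFP- cells (adjusted p = 2.40e-06 by limma), but in KO cells, where it was at background, the ages overlapped. Reg4 was 2.46-fold higher in adult WT GFP+ cells (adjusted p = 0.000224 by limma) and was not called in WT GFP- (0.50 ± 0.22 SE, adjusted p = 0.0657 by limma) or KO cells. Without adult GFP- array 6 the Reg4 difference in WT GFP- cells was 0.74 and called (adjusted p = 0.00632). Reg3g was 2.82-fold higher in adult WT GFP- cells (1.497 ± 0.204 SE, adjusted p = 1.53e-05 by limma) and 1.72-fold in adult KO cells (adjusted p = 0.00491 by limma, or 0.269 with perinate KO array 1 alone), but was not called in WT GFP+ cells (0.29 ± 0.18 SE, adjusted p = 0.265 by limma).

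**Figure D4:**
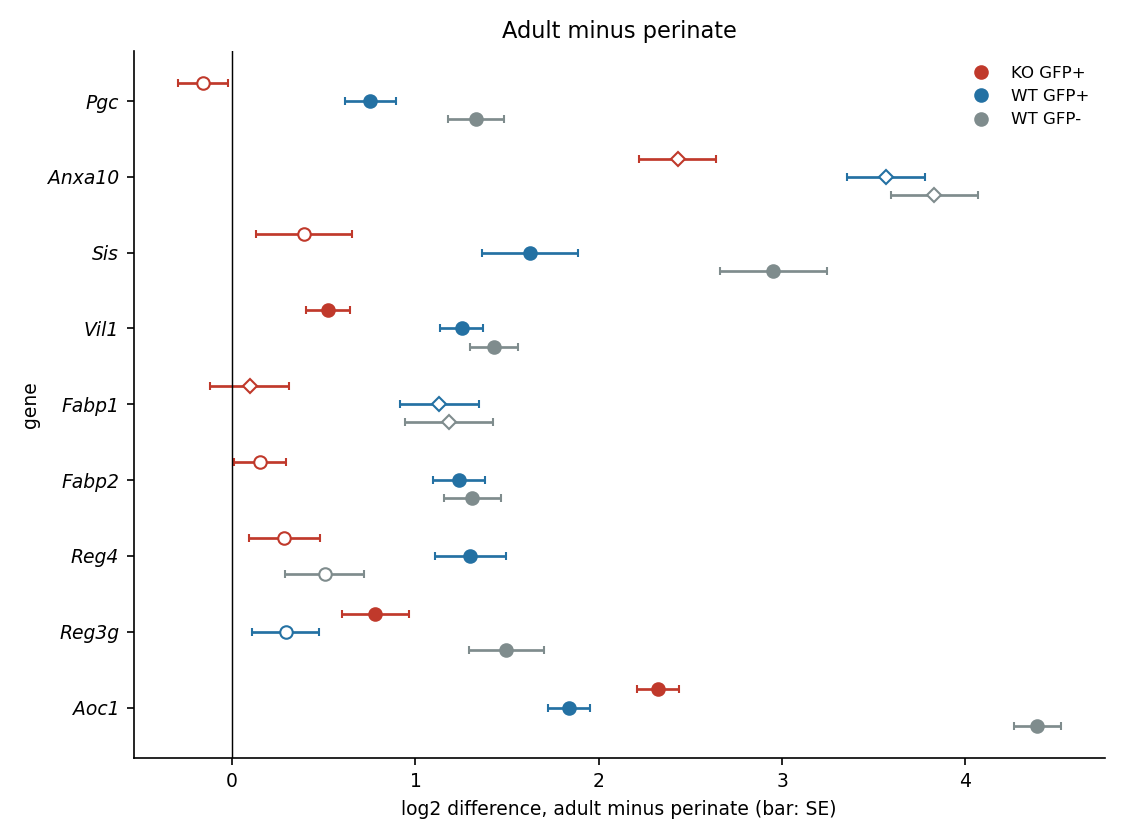
Log2 difference of adult minus perinate cells, with its standard error, for the 9 genes in KO GFP+, WT GFP+ and WT GFP- cells. Filled points were called, open circles were tested and not called, and diamonds carry no p. Aoc1 and Anxa10 lie far above 0 in all 3 cell groups, and Pgc lies near 0 in KO cells.

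KO GFP+ cells were also set against WT GFP- cells, which were sorted as negative for GFP. In adults 5 of 7 were lower, where 25.1% of all tested genes were: Pgc 7.35-fold (adjusted p = 1.79e-10 by limma), Fabp2 2.24-fold, Reg3g 2.19-fold, Vil1 1.47-fold and Reg4 1.44-fold. For Fabp2 and Reg4 all 6 arrays compared were under the 40th percentile, so both levels may be background. The Reg4 groups overlapped, and its call was lost without adult KO array 2 (adjusted p = 0.0951), adult KO array 3 (0.0679) or adult GFP- array 8 (0.191). In perinates only Pgc of the 7 was lower, 2.61-fold (adjusted p = 1.40e-06 by limma), where 24.1% of tested genes were. Reg3g did not pass (-0.41 ± 0.20 SE, adjusted p = 0.0995 by limma). It was called lower with quantile normalisation (adjusted p = 0.0312 by limma) and without perinate KO array 1 (0.0106). Without perinate GFP- array 2 the Reg3g difference was -0.69. With perinate KO array 1 alone the Reg3g difference was 0.025, and with a replicate block -0.18 (adjusted p = 0.379 by limma). Sis was 5.47-fold higher (adjusted p = 3.37e-06 by limma), Aoc1 4.06-fold (adjusted p = 2.20e-09 by limma) and Vil1 1.28-fold (adjusted p = 0.0373 by limma), where 26.6% were higher. With perinate KO array 1 alone the log2 differences were -1.35 for Pgc, 2.79 for Sis and 2.10 for Aoc1, all still called. The Vil1 call was lost without perinate KO array 1 (0.103) or 3 (0.0684), without perinate GFP- array 1 (0.116) or 2 (0.111), and with KO array 1 alone (0.0837). Comparisons that use the same KO or GFP- arrays are not independent of each other.

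By mean level, Pgc ran from adult WT GFP+ cells down through perinate WT GFP+, adult WT GFP- and perinate WT GFP- cells to KO cells of both ages, and only the KO groups overlapped their neighbour in that order. Aoc1 overlapped over the 3 adult groups and then stepped down through perinate WT GFP+, KO GFP+ and WT GFP- cells with no overlap. Over the groups, geometric means spanned 36.6-fold for Anxa10, 21.0-fold for Aoc1, 17.9-fold for Pgc and 15.8-fold for Reg4, but 3.76-fold for Reg3g and 3.45-fold for Vil1. The lowest group of Anxa10, Pgc, Reg4 and Vil1 was under the 40th percentile on all its arrays, so those spans are limited by background, and Anxa10 was picked for its low perinate level. Levels are on the array's own scale and are not set against each other between genes.

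Wider lists of gut genes were chosen with earlier results of these data known. Only genes that passed the filter were tested, 14 of 24 for the gastric list. A gene dim on KO arrays could pass only by being brighter on WT arrays, so these counts support nothing by themselves. Of 14 tested gastric genes, 12 were lower and 1, Vsig1, was higher in adult KO cells, and 13 were lower in perinate KO cells (median log2 difference -1.04 and -1.10, against 0.06 and 0.09 over all tested genes). Over all tested genes 10.8% were lower in adult KO cells, and in perinate KO cells 13% were lower and 13.5% higher, beside which this and the following list counts stand, with no test between lists. The members are not in these lists. The largest falls in adults were those of Lipf, gastric lipase (-3.33), Psca, a stem cell antigen of the stomach lining (-3.32), Sst, somatostatin (-3.05), and Gkn2, a gastrokine (-2.31). In perinates Psca (-3.69) and Ctse, cathepsin E (-2.78), led. Of 9 tested Reg family and gut defence genes, 8 were lower in adult KO cells and 6 in perinate KO cells, led in adults by Zg16, a mucus protein (-4.06), Reg3b, a close relative of Reg3g (-2.40), and Reg1 (-2.33). Reg3b was lower in perinates as well (-1.11).

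Of 9 tested brush border hydrolases, 4 were lower and 1, Dpp4, was higher in adult KO cells, and 5 of 9 were lower in perinates. Alpi and Akp3, the intestinal alkaline phosphatases, had log2 differences of -2.33 and -2.14 in adults, and Mgam, maltase-glucoamylase and a relative of Sis, of -1.59. Of 11 tested genes of microvillus structure, 5 were lower in adults and 3 in perinates, among them Cdhr2, a protocadherin that links microvilli (-1.31 in adults). Of 17 tested genes of lipid absorption, 8 were lower in adults, with Apoa1 (-2.72), Clps, pancreatic colipase (-2.15), and Fabp6, the ileal bile acid binding protein (-1.97), and in perinates 12 were lower and 2, Cd36 and Mttp, higher. Of 11 tested nutrient transport genes, 6 were lower at each age, including the sodium-proton exchanger Slc9a3 (-1.69 in adults).

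Of 17 tested gut transcription factors, 6 were lower and 0 higher, against 10.8% of all tested genes lower, in adult KO cells, and in perinates 8 were lower and 1, Cdx1, was higher, against 13% lower and 13.5% higher. The lower factors in adults included Gata4 (-0.96), Gata5 (-0.78), Foxa1 (-0.63) and Hnf4a (-0.44), with Hnf4a at 122.2 ± 9.2 in adult KO cells, against 167.0 ± 24.9 in adult WT GFP+ cells (SD, n = 3 each). Cdx1, a caudal factor of the intestine, read 980.0 ± 166.0 in perinate KO and 652.0 ± 82.3 in perinate WT GFP+ cells (SD, n = 3 each). Perinate KO array 1 read 792.4 for Cdx1 and arrays 2 and 3 read 1108 and 1040, against up to 743.0 in perinate WT GFP+ cells. Its relative Cdx2 was near background, at 60.9 ± 4.0 in perinate KO and 108.1 ± 8.9 in perinate WT GFP+ cells (SD, n = 3 each). With age, Hnf4g was higher in adults in KO cells (1.11), in GFP+ WT cells (1.54) and in GFP- WT cells (2.40).

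**Figure D5:**
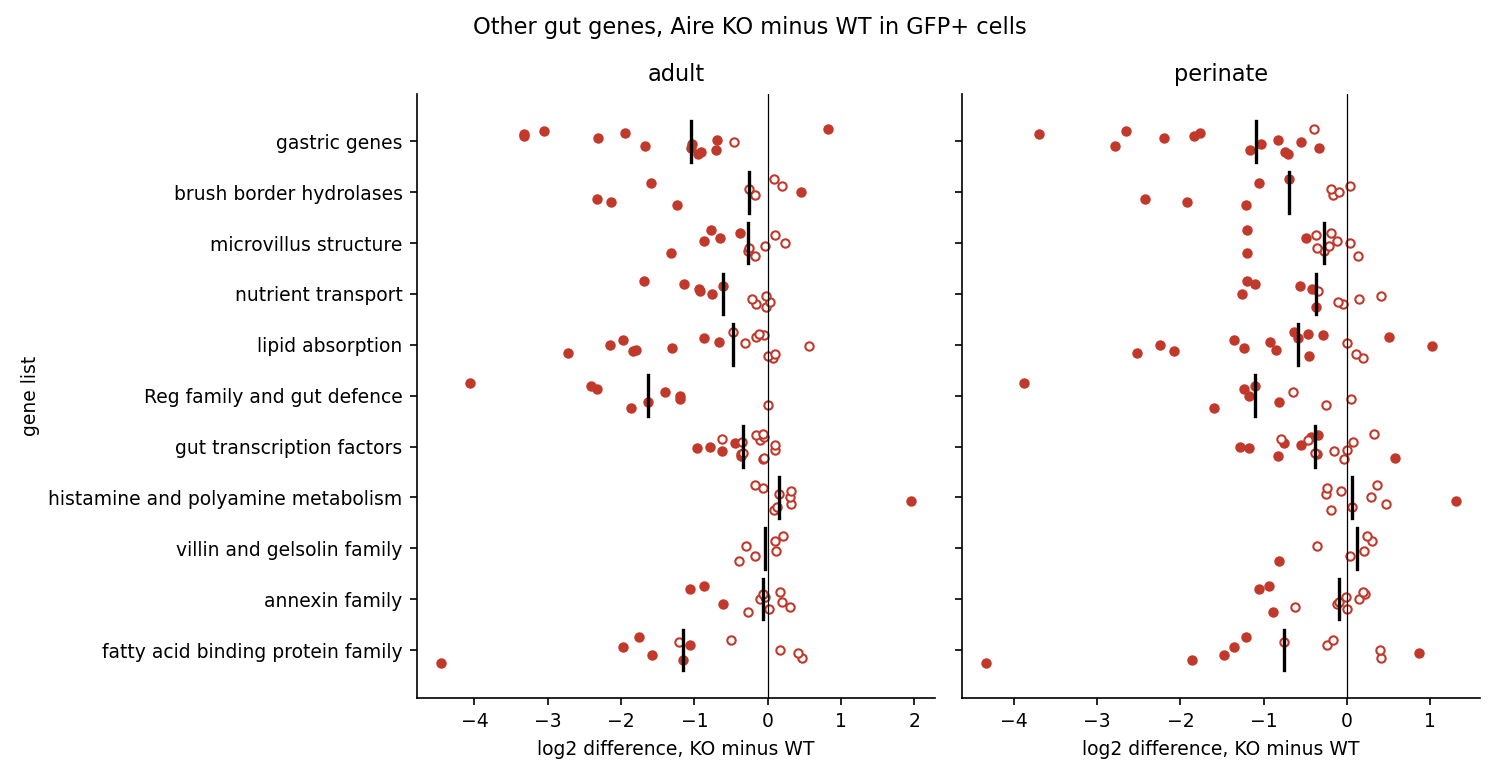
Log2 difference of KO minus WT GFP+ cells in adults and perinates for the tested genes of the gut lists, 1 point a gene, filled where called, with a black tick at each list's median. Gastric and Reg family genes lie farthest below 0, and histamine and polyamine genes lie around it.

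The 3 genes most like each member were taken by Pearson correlation of log2 intensity over the 17 arrays, among 5060 tested genes whose group means spanned at least 1 on the log2 scale. The 17 arrays share 6 groups, so these r describe likeness of group patterns and carry no p. Pgc was closest to Obp2a (0.99), Pla2g1b (0.99) and Sst (0.98), of which Pla2g1b encodes a pancreatic phospholipase. Reg4 was closest to Epx, eosinophil peroxidase (0.98), Tdpoz2 (0.98) and Spopfm2 (0.98). Aoc1 was closest to Fmo5 (0.98), Sel1l3 (0.98) and Apobec1, the enzyme that edits apolipoprotein B transcripts (0.98), and Anxa10 to Cdkn2c (0.97), Slc6a4 (0.96) and Abcg5 (0.96). Fabp2 was closest to Trim31 (0.97), Bco1 (0.96) and Mat1a (0.95), Sis to Cadps (0.95), Gramd1b (0.95) and Vdr, the vitamin D receptor (0.95), and Vil1 to Mtmr7 (0.95), Hsd17b6 (0.95) and Pklr (0.95). Reg3g was closest to Fetub (0.94), Lgals4, an intestinal galectin (0.94), and Sec14l4 (0.94), and Fabp1 to Slc51b (0.91), Muc3 (0.91) and Hsd17b6 (0.88). Between members, Pgc and Anxa10, the 2 gastric genes, had r = 0.04.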

How the data were processed

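RNA of sorted thymic epithelial cells was measured on Affymetrix Mouse Gene 1.0 ST arrays, 17 in 6 groups. The authors deposited linear intensities per probe set. Affymetrix Power Tools and RMA produced them, per the submitters' processing notes, in versions not given in the sources used here. All columns were used (0 unused). Of 24922 probe sets, 21425 had 1 gene symbol, 1399 several and 2098 none in the platform annotation, and 19752 genes were named, each by its brightest probe set.

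Intensities were log2-transformed without a pseudocount and fitted with limma 3.58.1 in R 4.3.3, as 1 model of 6 group means (11 residual degrees of freedom), for 11 comparisons. The p-values are two-sided and moderated, adjusted by Benjamini-Hochberg over 13842 genes, and called under 0.05. Precision is limited by the number of arrays, with a median SE of 0.13 (log2) for 3 arrays against 3. The steps were tested on simulated data. Age differences are adult minus perinate.

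The members, the gene lists and the tests were chosen with earlier results of these data known. All members are named, and from each list up to 4 called genes with the largest difference in adults or perinates, and any called gene that went against its list's majority. Anxa10 carries no p because it was chosen for its age difference. Numbers shared by adult WT GFP+ and GFP- arrays may pair them, though no label says so. Their correlations of deviations were 0.503, 0.443 and 0.188 for numbers 6, 7 and 8. A fit with the number as a block called the same 5 genes. Alternatives were other filters, normalisations, a pseudocount of 16, array weights, fits of only the groups compared, and leaving out each array.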

Additional observations from a re-analysis of the deposited data

Results flagged for a closer look

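The effect of losing Aire differed between adults and perinates for 3 of the genes, by the test of the difference itself. The adult minus perinate difference on the log2 scale was -1.08 for Fabp2, -0.91 for Pgc and -0.73 for Vil1, with 0 of the 3 called when perinate KO array 1 stood alone. Pgc and Fabp2 were under the 40th percentile on all 6 KO arrays, and Fabp2 also on the 3 perinate WT GFP+ arrays. The filter passed Fabp2 only through adult WT GFP+ arrays, which favoured this direction, and Pgc only through WT arrays. Pgc was higher in adult than perinate WT GFP+ cells by 0.75 and differed by -0.16 in KO cells, so over such low KO levels a larger fall and a higher adult WT level cannot be told apart.

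The difference of GFP+ from GFP- cells also differed with age for 3 genes, by the same kind of test. It was -2.55 for Aoc1, which was not called between GFP+ and GFP- cells in adults (-0.11) and was 5.45-fold higher in GFP+ cells of perinates. It was -1.33 for Sis, whose perinate GFP+ and GFP- arrays were all under the 40th percentile, so that both levels may be background. It was -1.21 for Reg3g, which was 1.78-fold lower in GFP+ cells in adults and was not called in perinates.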

How the results depend on the processing

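Directions of the called differences held under every alternative run: 0 called results reversed. Of the single-gene results with a test, 1968 stayed on the same side of the threshold, 57 lost a call and 22 gained one, and of the counts of called genes 280 stayed within 1.5 times and 14 moved. These tallies include results that were never called. They also include fits without an array outside the comparison, which leave its difference unchanged and alter only the shared spread. So they are not counts of independent checks. For the change of the KO effect with age, Vil1 lost its call with a filter at the 60th percentile (adjusted p = 0.0537 by limma). The count for that change was the least stable. It was 3, and it was 1 with a filter at the 60th percentile, which left Fabp2 untested, 5 in a fit of only the groups compared, 0 with perinate KO array 1 alone, and 1 to 4 when single arrays were left out. With perinate KO array 1 alone, KO cells of perinates had 3 called genes (6 otherwise) and the age difference in KO cells had 1 (3 otherwise). The count for the difference of GFP effects ran from 2 to 5 when single arrays were left out, against 3. In those fits the count was 4 for KO in adults, 4 to 6 for KO in perinates, 4 to 6 and 6 to 7 for GFP in adults and perinates, 6, 6 to 7 and 3 for age in WT GFP+, WT GFP- and KO cells, and 4 to 5 and 3 to 4 for KO against GFP- cells in adults and perinates. The causes were not tested. A pseudocount of 16 took the Sis difference of GFP effects out of the calls (adjusted p = 0.0881). With no filter Fabp1 could be tested, but all its arrays were under the 40th percentile, so no call is read from it. For KO adults and perinates the numbers 1 to 3 did not pair the arrays (correlations of deviations 0.0486, 0.039 and 0.0589), and a replicate block there called 4 genes, with Sis gained (adjusted p = 0.0459). A replicate block called 6 genes for age in WT GFP+ cells (0.033 and 0.189 for numbers 6 and 7) and 3 for perinate KO against GFP- cells (0.27 and 0.166), where Vil1 was lost (adjusted p = 0.106). Signals near the 40th percentile, which include Fabp1, Fabp2, the KO levels of Pgc, the KO and GFP- levels of Reg4 and the perinate WT levels of Sis, limit the folds that can be seen.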

Other observations

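Relatives of the members were counted by family, beside 10.8% of all tested genes lower in adult KO cells, and 13% lower and 13.5% higher in perinate KO cells. No test was made between families. Of 11 tested fatty acid binding protein genes, 6 were lower in adult KO cells and none higher, and in perinates 5 were lower and 1, Fabp4, the adipocyte form, was higher. Crabp1, a retinoic acid binding protein of that family, fell by 4.46 on the log2 scale in adults. Of 11 tested annexins, 3 were lower at each age, including Anxa8 (-1.06 in adults), and 0 were higher. Of 6 tested relatives of Vil1 in the villin and gelsolin family, 0 were called in adult KO cells and 1, Avil, the advillin of sensory and tuft cells, was lower in perinates, which is near the share over all genes.

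Aoc1 belongs to histamine and polyamine metabolism, where 0 of 9 tested genes were lower in KO cells of either age, near the share of 10.8% and 13% over all tested genes. Maoa, a monoamine oxidase, was the single gene higher, at 1.96 on the log2 scale in adult KO cells.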
